A study of Monodelphis domestica with 5 samples.

Results

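Peaks of enrichment for H3K9Ac that had no H3K4me3 peak on top of them were examined as candidate distal elements of the opossum genome. They were chosen by 2 sets of measured values, the deposited H3K9Ac peak calls and the deposited H3K4me3 peak calls: every H3K9Ac peak on chr1 to chr8 that shared no base with any H3K4me3 peak was taken. This gave 5057 of the 51165 H3K9Ac peaks on chr1 to chr8 (9.88%, exact 95% binomial interval 9.63 to 10.1%). The H3K9Ac list held 52511 peaks in all, and the lists for the 4 marks held 308249. The number depends on both score thresholds: it was 1499 with only H3K9Ac peaks of score 100 or more, and 8087 where only H3K4me3 peaks of score 100 or more could exclude a peak. The other 46108 H3K9Ac peaks on chr1 to chr8 overlapped H3K4me3 and serve as the comparison set.

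Chromatin was cut with micrococcal nuclease without crosslinking and pulled down with an antibody (native ChIP-seq). It came from primary ear fibroblasts of an adult male gray short-tailed opossum (Monodelphis domestica), a laboratory marsupial, born to an LL1 mother and an LL2 father. Each of H3K4me3, H3K9Ac, H3K9me3 and H3K27me3 had 1 library, with peaks called against input chromatin, and all libraries shared the same cross, sex, stage and culture. The labels give passages 4 to 6 and mention pooling of chromatin between sisters, which the methods do not describe for this male. With 1 library per mark and a single animal there was no replicate error, so no test was run and no p-value is given for any difference. Intervals for shares are exact 95% binomial intervals, cover counting error only and treat peaks as independent. The peak lists hold no read counts, so the reads behind a single peak are not known here. The supplement lists more aligned reads for H3K9Ac than for H3K4me3, and the part that this plays in which peaks lack a partner was not tested.

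Acetylation of lysine 9 on histone H3 is a mark of activation (MOA) that is laid down by histone acetyltransferases and is found both at active promoters and at active enhancers. Trimethylation of lysine 4 on the same histone, the other MOA, is concentrated at promoters, so acetylation away from it is a common starting point in the search for enhancers. H3K9me3, which is typical of heterochromatin, and H3K27me3, which is placed by Polycomb complexes, are marks of repression (MORs). None of the peaks described here was tested for enhancer activity. The identity of the cells as fibroblasts could not be checked against marker genes, since peaks carry no expression values and no annotation of the MonDom5 build was used here.

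H3K9Ac peaks without H3K4me3 were weaker and narrower than those with it. The score of a peak, which is minus 10 times the log10 of its p-value in the peak caller, had a median of 77.6 in peaks without H3K4me3 and 267 in the others. The quartiles of the former were 61.0 and 109, and their range was 50.01 to 1440.42. A score of 100 or higher, which stands for a p of at most 1e-10, was reached by 75.0% of all H3K9Ac peaks on chr1 to chr8, by 1499 of the 5057 without H3K4me3 (29.6%, 28.4 to 30.9%) and by 36897 of the 46108 with it (80.0%, 79.7 to 80.4%). Most of the set thus lay close to the lowest score in the list, as the plot of score and width shows. The median width was 1405 bases without H3K4me3 and 2184 bases with it. The narrowest peak of the set spanned 648 bases and the widest 8626, against a maximum of 36168 for the others. The 5057 peaks together covered 7.70 Mb, or 5.92% of the bases under H3K9Ac peaks on chr1 to chr8. Because score and width come from the list that the selection read, these are descriptions and not findings about the set.

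**Figure D1:**
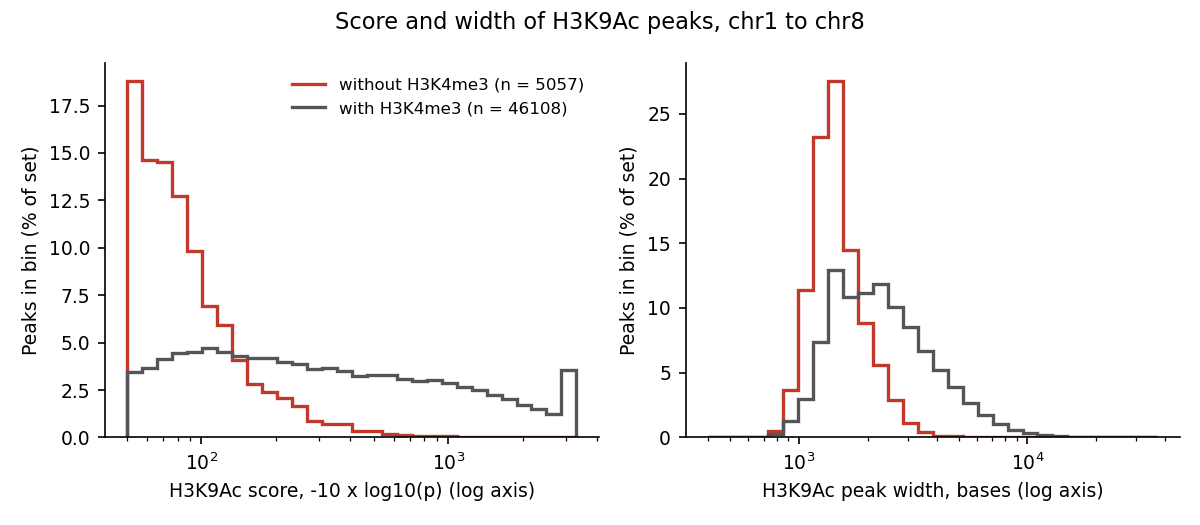
Distribution of H3K9Ac score (left, log axis) and peak width in bases (right, log axis) as the percentage of each set in each bin, for the 5057 peaks without H3K4me3 (red) and the 46108 peaks with it (grey). The red curves pile up at low scores and at widths near their median of 1405 bases, and the grey curves run on to far higher values.

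The share of H3K9Ac peaks that lacked H3K4me3 dropped steeply with score. Of 7353 peaks with a score of 50 to 75, 2362 had no H3K4me3 (32.1%, 31.1 to 33.2%). The share was 22.1% at 75 to 100 and 10.1% at 100 to 200. Among the 27218 peaks with a score of at least 200 it was 1.37% (374 peaks, 1.24 to 1.52%). Width gave the same order, from 27.3% of peaks narrower than 1200 bases to 1.33% of the 19931 peaks of 2400 bases or more. Weak H3K9Ac peaks therefore made up the bulk of the set, and strong ones without H3K4me3 were rare. A wider peak has more bases that can touch H3K4me3, so the selection by itself favours narrow peaks, and width rose with score. How much of either drop comes from this was not tested. Within a score class the widths of both sets were close: median 1242 without and 1246 bases with H3K4me3 at 50 to 75, 1458 and 1424 at 75 to 100, and 1753 and 1725 at 100 to 200. At 200 and above they were 2368 bases without and 2932 with H3K4me3, but this open class was not matched for score, with medians of 264 and 626.

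**Figure D2:**
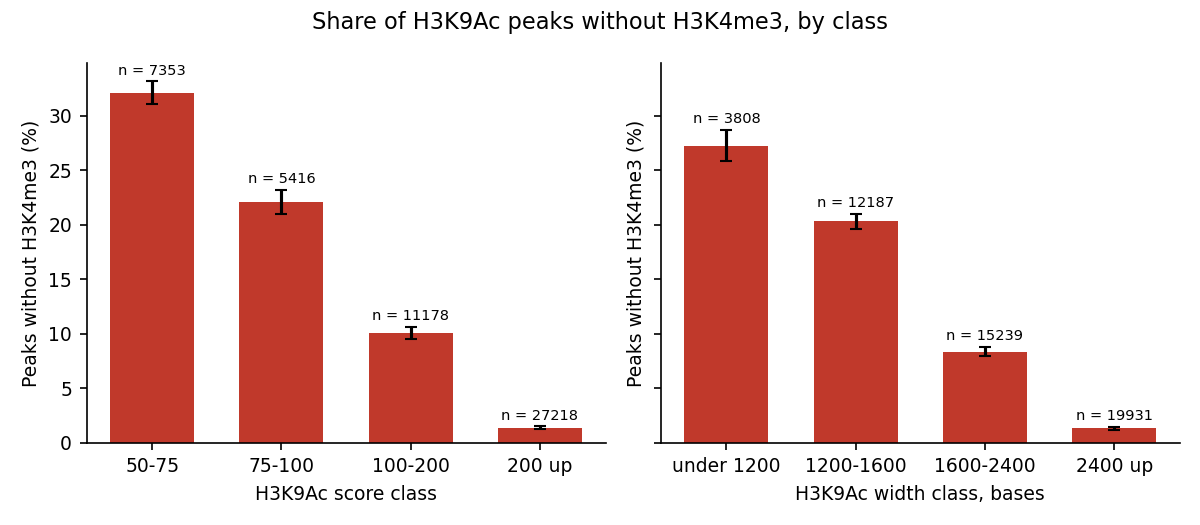
Percentage of H3K9Ac peaks that shared no base with H3K4me3, by class of H3K9Ac score (left) and of width in bases (right). Bars start at 0, whiskers are exact 95% binomial intervals, and n is the number of H3K9Ac peaks in the class. The share drops from 32.1% to 1.37% across score classes and from 27.3% to 1.33% across width classes. A wider peak is more likely to touch H3K4me3 by construction.

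Small overlaps between both MOAs were rare. Of the 46108 H3K9Ac peaks with H3K4me3, 24216 (52.5%) were wholly covered by it, 21248 (46.1%) were covered in part but over 50% or more of their length, 644 (1.40%) were covered over less than 50% of their length, and 48 (0.104%) over less than 10%. The limit of the selection was thus reached by few peaks. Just inside it, chr2:290763274-290765150 (MonDom5, as are all positions here; score 102.1) directly adjoined an H3K4me3 peak. The next in line, chr2:377965364-377968113 (score 406.17) and chr6:104212539-104213955 (score 65.99), were each separated from H3K4me3 by 1 base. Just outside it, chr6:82346132-82347354 (score 82.24) shared 1 base with H3K4me3, chr1:311671186-311673646 (score 109.82) shared 4 bases, and chr8:194342631-194343683 (score 52.64) shared 7.

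The distance to the nearest H3K4me3 peak spread over several orders of magnitude without separating into groups. The gap between peak edges had a median of 7688 bases, quartiles of 2562 and 19700 bases and a maximum of 915769 bases. Peaks with a gap of up to 5 kb were termed flanking and those beyond it distal. Both terms refer to H3K4me3 peaks. Promoters were not placed here, so a distal peak may still lie at a promoter without an H3K4me3 peak. There were 1960 flanking peaks (38.8%, 37.4 to 40.1%) and 3097 distal peaks (61.2%, 59.9 to 62.6%). By finer classes, 546 peaks (10.8%) lay within 1 kb, 1414 (28.0%) at over 1 to 5 kb, 1855 (36.7%) at over 5 to 20 kb, 1164 (23.0%) at over 20 to 100 kb and 78 (1.54%) beyond 100 kb. The plot of gaps has a single broad hump that runs across the 5 kb limit, so the split is a convention and not a break in the data.

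**Figure D3:**
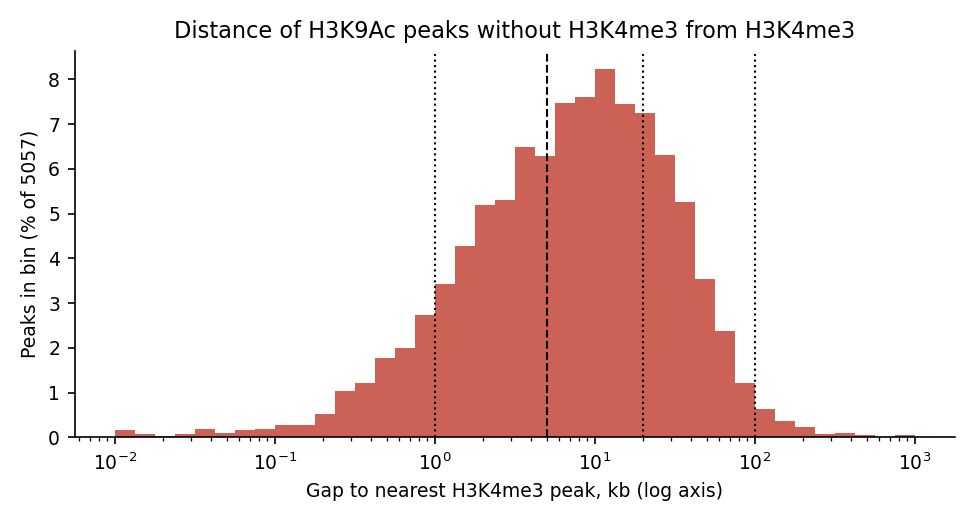
Gap in kb (log axis) from each of the 5057 H3K9Ac peaks without H3K4me3 to the nearest H3K4me3 peak, as the percentage of peaks per bin, with gaps below 10 bases placed in the first bin. The dashed line marks 5 kb, the limit between flanking and distal, and dotted lines mark 1, 20 and 100 kb. A single hump spans the 5 kb limit, with 38.8% of peaks to its left.

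Flanking peaks were slightly stronger by median than distal ones. The median score was 80.1 in flanking (95% interval of the median 78.4 to 82.5) and 76.0 in distal peaks (74.9 to 77.4). The median width was 1419 (1402 to 1431) and 1400 bases (1391 to 1410), with overlapping intervals. A score of at least 200 was reached by 7.70% of flanking (6.56 to 8.97%) and 7.20% of distal peaks (6.31 to 8.17%), and these intervals overlap. Across the 5 gap classes the median score went from 82.9 within 1 kb through 79.5, 76.7 and 75.5 to 67.3 beyond 100 kb. The peaks beyond 100 kb were the weakest by median, yet 8 of these 78 scored at least 200.

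The nearest H3K4me3 peak was usually itself acetylated. Of all H3K4me3 peaks on chr1 to chr8, 58.9% shared a base with H3K9Ac. The nearest H3K4me3 peak was acetylated for 77.5% of the H3K9Ac peaks within 1 kb, 78.1% at over 1 to 5 kb, 74.6% at over 5 to 20 kb, 69.0% at over 20 to 100 kb and 57.7% beyond 100 kb. The last of these was close to the level over all H3K4me3 peaks, whereas the nearer classes lay above it. However, the last value rests on few peaks (45 of 78). The median gap to an acetylated H3K4me3 peak was 10.7 kb for H3K9Ac peaks without H3K4me3. For the 30895 H3K4me3 peaks that shared no base with H3K9Ac, the converse set, it was 13.3 kb. Such an acetylated H3K4me3 peak lay within 100 kb of 96.2% of the former and of 90.5% of the latter.

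Other H3K9Ac peaks were often close by. A further H3K9Ac peak of either kind lay within 10 kb of 56.6% of those without H3K4me3 (55.3 to 58.01%) and of 59.4% of those with it (59.0 to 59.9%). Within 1 kb the shares were 12.2% and 18.7%. Of the flanking peaks, 80.4% had another H3K9Ac peak within 5 kb, and 279 of 1960 (14.2%) had H3K4me3 within 5 kb on both sides, placing them in the space between H3K4me3 peaks. At the other end, 2716 peaks (53.7% of the set) were over 5 kb from both H3K4me3 and any other H3K9Ac peak, and 46 were over 100 kb from both. More than 1 in 2 of these peaks therefore stood alone with respect to both MOAs at a limit of 5 kb, but not at 10 kb. Gaps to another H3K9Ac peak were also often over 5 kb in the comparison set. Their median was 7.81 kb without H3K4me3 and 6.58 kb with it.

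The strongest peak of the set, chr5:271145140-271149443, was 4304 bases wide and had a score of 1440.42. It lay 371 bases from an H3K4me3 peak with a score of 536.25 and 241 bases from another H3K9Ac peak. Similarly, chr3:25640543-25643585 (score 1181.16) was 551 bases from H3K4me3 and 228 from another H3K9Ac peak, and chr4:160252647-160256499 (score 975.59) was 787 and 359 bases from them. These 3 strong peaks thus lay within 1 kb of both an H3K4me3 peak and another H3K9Ac peak. Whether that H3K9Ac peak overlapped the same H3K4me3 peak was not examined. Among the highest scores was also chr1:584920111-584923617 (score 1028.83), which was 2.23 kb from H3K4me3. Of the 10 peaks with the highest scores, 4 had another H3K9Ac peak within 1 kb, and this was so for 616 of the 5057.

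The other 6 of the 10 were distal. The peak chr2:190432554-190435648 had a score of 1318.3 and was 9.80 kb from H3K4me3 and 11.4 kb from any other H3K9Ac peak. The peak chr1:613787384-613790278 had a score of 1253.21, and its nearest H3K4me3 peak, 10.6 kb away, was a weak one with a score of 88.37. Another H3K9Ac peak lay 0.786 kb from it. The peak chr1:463466841-463470201 (score 1047.67) was 30.9 kb from H3K4me3 and 4.64 kb from another H3K9Ac peak. These scores are well above that of a typical peak with H3K4me3. Of the remaining distal ones, chr2:67514505-67517466 (score 1004.69) was 7.68 kb from H3K4me3 and 7.84 kb from another H3K9Ac peak. For chr6:149982537-149985241 (score 901) these gaps were 11.2 and 2.71 kb, and for chr1:594166788-594169663 (score 895.02) 39.1 and 2.39 kb. In all, 374 peaks scored at least 200, of which 223 were distal (59.6%, 54.5 to 64.6%), and 36 scored at least 500.

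The most remote peaks included a few strong ones. Beyond 100 kb from H3K4me3, chr5:118352949-118355513 had the highest score, 702.84, with 222 kb to H3K4me3 and 226 kb to any other H3K9Ac peak. It was followed by chr7:103614229-103617216 (score 499.37), which stood 111 kb from both. The next were chr7:177018843-177022513 (score 295.25, 135 kb from H3K4me3 and 41.9 kb from another H3K9Ac peak), chr3:177194269-177197684 (score 295.19, 184 and 41.6 kb) and chr3:190180078-190182649 (score 259.2, 205 kb from both). Thus 3 of these 5 were over 100 kb from both MOAs, and the other 2 had H3K9Ac closer by. The 3 farthest of all had lower scores: chr5:290354197-290355473 (score 54.52, 916 kb), its neighbour chr5:290355581-290357073 (score 105.05, 914 kb), and chr3:150649970-150651224 (score 51.6, 777 kb).

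The widest peaks were not the strongest. The 3 widest lay in a single stretch of chr1 with the same nearest H3K4me3 peak: chr1:291755149-291763774 was 8626 bases wide with a score of 117.07, chr1:291718770-291725770 was 7001 bases with 159.02, and chr1:291708481-291714129 was 5649 bases with 133.75. Their gaps to that H3K4me3 peak, which had a score of 141.65, were 25.2, 63.2 and 74.8 kb. For their width these scores are low, since H3K9Ac peaks of 2400 bases or more had a median score of 242 without and 877 with H3K4me3. The next in width were chr1:698397076-698402117 (5042 bases, score 398.52), which was 46 bases from H3K4me3, and chr8:23742766-23747778 (5013 bases, score 185.52), at 3.77 kb.

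A small part of the set was clustered. With a cluster defined as a run of H3K9Ac peaks without H3K4me3 in which neighbours are at most 10 kb apart, 824 peaks (16.3%, 15.3 to 17.3%) fell into 383 clusters. Of these, 337 were pairs, 39 held 3 peaks, 3 held 4, 3 held 5 and 1 held 6. Among the H3K9Ac peaks with H3K4me3, 56.6% fell into clusters by the same definition, but that set is far denser and so the 2 shares cannot be compared as a tendency to cluster. The median score was 82.0 in clustered and 76.7 in unclustered peaks, and their median widths were 1458.5 and 1399 bases. Distal peaks made up 66.9% of the clustered and 60.1% of the unclustered ones.

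The cluster with 6 such peaks spanned chr1:70278198-70316690 (38493 bases). Its peaks had scores of 291.19, 103.24, 118.8, 94.27, 210.73 and 562.46, and lay 0.141 to 5.20 kb from H3K4me3. Inside the span were 2 H3K4me3 peaks and 2 further H3K9Ac peaks that overlapped them, with 1 peak of the set before the first, 3 between them and 2 after the second. No H3K9me3 or H3K27me3 peak of any score lay inside, and the nearest H3K9me3 peak with a score of at least 50 was 21.3 kb away. To the right, the stretch ended in an H3K4me3 peak of 13885 bases.

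**Figure D4:**
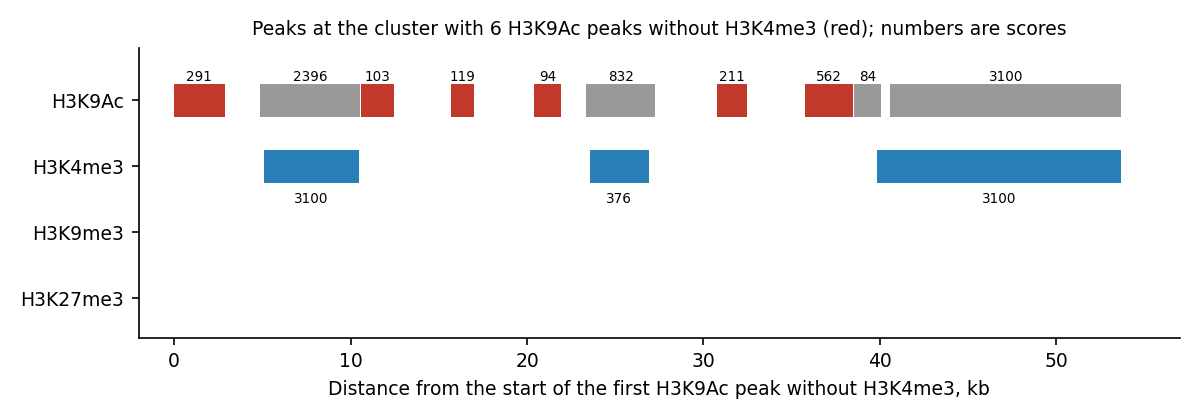
Map of the 6-peak cluster, in kb from the start of its first peak, with a lane for each mark. Red bars are H3K9Ac peaks without H3K4me3, grey bars H3K9Ac peaks with it, blue bars H3K4me3 peaks, and the number at each bar is its score. The 6 red bars lie before, between and after the 2 grey bars inside the cluster, and further grey bars follow to the right. The H3K9me3 and H3K27me3 lanes are empty over the stretch shown.

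The next in size were 3 clusters of 5 peaks, of which the 2 with the largest summed width are described. They were of another form, with no further peak of any of the 4 marks inside. In chr4:306061016-306087145, 5 peaks with scores of 75.21 to 195.45 trailed away from an H3K4me3 peak of score 2574.63, at gaps of 0.602, 2.17, 9.10, 20.2 and 25.4 kb. In chr1:434789072-434816980, 5 peaks with scores of 51.33 to 164.22 lay 6.62 to 32.1 kb from an H3K4me3 peak with a score of 3100. Both were one-sided strings of modest peaks beside a strong H3K4me3 site.

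The MORs were not used in the selection. Of all H3K9Ac peaks on chr1 to chr8, 2.05% shared a base with an H3K9me3 peak of score 50 or more (p of at most 1e-05). Among those without H3K4me3 this was 19 of 5057 (0.376%, 0.226 to 0.586%), and among those with it 1028 of 46108 (2.23%, 2.10 to 2.37%). An H3K9me3 peak overlapped or lay within 10 kb of 23.3% of all H3K9Ac peaks on chr1 to chr8. The share was 15.5% without H3K4me3 (783 peaks, 14.5 to 16.5%) and 24.2% with it (11162 peaks, 23.8 to 24.6%). In these lists, H3K9Ac peaks without H3K4me3 thus had H3K9me3 nearby less often than those with it. The intervals do not overlap, but they cover counting error only and treat neighbouring peaks as independent. The H3K4me3 peaks without H3K9Ac stood at the opposite end, with 5.14% overlapping H3K9me3 and 28.7% within 10 kb of it.

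The same order was seen at other distances. H3K9me3 lay within 1 kb of 1.44% without and 4.37% with H3K4me3, within 50 kb of 61.0% and 68.7%, and within 100 kb of 83.6% and 87.6%. The median gap to H3K9me3 was 37.7 kb without H3K4me3 and 27.6 kb with it. Within 5 kb, H3K9me3 was found for fewer flanking (6.02%, 5.01 to 7.17%) than distal peaks (8.20%, 7.26 to 9.22%). Within 10 kb the shares were 14.4% (12.9 to 16.1%) and 16.1% (14.9 to 17.5%), with overlapping intervals. At longer distances the order of flanking and distal peaks turned. Within 50 kb the shares were 62.9% of flanking (60.7 to 65.1%) and 59.8% of distal peaks (58.0 to 61.5%), with overlapping intervals. The median gap to H3K9me3 was shorter in flanking peaks, at 34.9 kb (95% interval 32537 to 36796 bases). In distal peaks it was 39.2 kb (37682 to 40801 bases). In windows of 100 kb centred on the peaks, H3K9me3 covered on average 2.55% of bases around H3K9Ac peaks without H3K4me3 and 3.403% around the others, and 39.6% and 32.1% of windows held none.

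**Figure D5:**
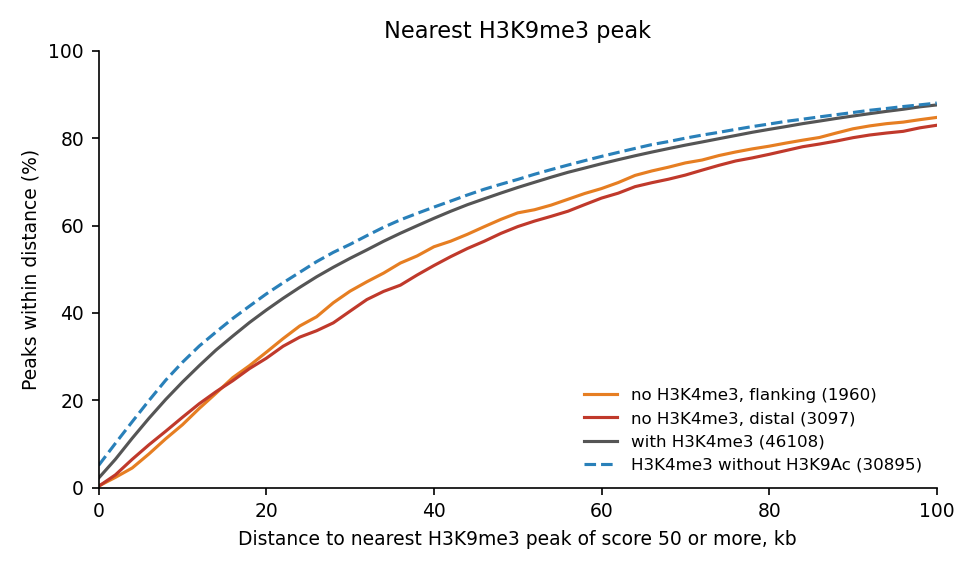
Cumulative percentage of peaks whose nearest H3K9me3 peak of score 50 or more lies within the distance on the horizontal axis (kb). Both H3K9Ac sets without H3K4me3 (orange flanking, red distal) run below H3K9Ac peaks with H3K4me3 (grey), and H3K4me3 peaks without H3K9Ac (blue, dashed) run above them. At 10 kb the values are 14.4%, 16.1%, 24.2% and 28.7%.

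Since both sets differed in score and width, the H3K9me3 shares were also taken within classes. At H3K9Ac scores of 50 to 75, H3K9me3 lay within 10 kb of 14.9% of peaks without (13.5 to 16.4%) and 23.0% with H3K4me3 (21.8 to 24.2%). At 75 to 100 the shares were 15.1% and 23.4%, and at 100 to 200 they were 15.3% and 22.6%. At scores of 200 or more the shares were closer, 21.1% (79 of 374, 17.1 to 25.6%) and 25.2% (24.6 to 25.7%), and these intervals overlap. This open class was not matched for score. Overlap itself varied more with score. It was 0 of 2362 at 50 to 75 without H3K4me3 (up to 0.156%) against 1.48% with it, 0.585% against 1.40% at 75 to 100, 0.800% (0.366 to 1.51%) against 1.45% (1.23 to 1.71%) at 100 to 200, and 0.802% (0.166 to 2.33%) against 2.79% (2.60 to 2.99%) at 200 or more. The overlap share was thus lower without H3K4me3 in all 4 score classes. However, the intervals overlapped at 75 to 100 and at 100 to 200, and the class of 200 or more was not matched for score. By width the shares within 10 kb without H3K4me3 were 15.02 to 17.7% and those with it 23.1 to 25.1% over the 4 classes. The share within 10 kb was lower without H3K4me3 on 8 of 8 chromosomes, where it ran from 13.0 to 18.5% against 21.4 to 26.8%. It was also lower with other H3K9me3 thresholds: 23.0% against 33.0% with every deposited H3K9me3 peak, and 7.20% against 13.0% with a score of at least 100.

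Where H3K9me3 did overlap, it did so mostly over a small part of the peak. The 19 overlapping peaks, 8 flanking and 11 distal on 7 chromosomes, shared a median of 15.2% of their length with H3K9me3, from 0.380 to 52.2%. The H3K9me3 peak with the highest score, 267.62, covered 611 bases (21.7%) at the edge of chr4:250178037-250180858, an H3K9Ac peak of score 236.89 that lay 17.3 kb from H3K4me3. The largest coverage, 894 bases (52.2%), was at chr1:272553667-272555380 (score 161.1), which was 0.782 kb from H3K4me3. The others with high H3K9me3 scores were chr5:284634439-284635838 (36.5% covered), chr1:612264433-612266234 (13.2%) and chr2:529584578-529586021 (10.7%). No peak of the 19 was wholly covered.

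H3K27me3 was rare at all H3K9Ac peaks. A peak of H3K27me3 with a score of 50 or more shared a base with 0.0958% of all H3K9Ac peaks on chr1 to chr8, with 1 of 5057 without H3K4me3 (0.0198%) and with 48 of 46108 with it (0.104%). It overlapped or lay within 10 kb of 2.75% of all, of 39 without H3K4me3 (0.771%, 0.549 to 1.05%) and of 1370 with it (2.97%, 2.82 to 3.13%). The lower share within 10 kb went the same way as for H3K9me3, on far fewer peaks. The peak that overlapped was chr1:82507214-82508666 (score 85.26), with 62 bases under an H3K27me3 peak of score 69.91. With H3K27me3 peaks of any score, chr5:182021217-182022402 (450 bases, H3K27me3 score 37.85) and chr5:536267-537809 (12 bases, H3K27me3 score 34.9) were added.

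The set was spread over all 8 chromosomes. It made up between 8.67% of H3K9Ac peaks (chr8) and 10.5% (chr1), with 1.05 to 1.73 peaks per Mb, and 58.8 to 65.1% of the peaks were distal on each chromosome. Of 3427 windows of 1 Mb, 1976 (57.7%) held at least 1. The most in a window was 11, found in 3 windows: chr6:259000001-260000000, chr8:226000001-227000000 and chr1:698000001-699000000. These windows held 35, 26 and 16 H3K9Ac peaks with H3K4me3, in the same order. Windows with many peaks of the set tended to hold more H3K9Ac peaks with H3K4me3, but not in every case. Across the 3427 windows the number without H3K4me3 went with the number with it (Pearson's r = 0.526, Spearman's rho = 0.609) and against the number of H3K9me3 peaks (r = -0.327, rho = -0.359). These are descriptions across windows of the same libraries, which share gaps and mappability. H3K9Ac peaks with H3K4me3 had a rho of -0.361 with H3K9me3, close to that of the set.

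Genes could be placed only where the study itself gave MonDom5 positions, for the amplified 3′ regions of 177 genes on chr1 to chr8 that, apart from IGF2R, it had picked from these same libraries. Those positions were read from page images of the supplement, so a digit may be misread for a single gene, and 100 kb around a 3′ region need not reach the promoter. Of these, 75 (42.4%, 35.0 to 50.01%) had an H3K9Ac peak without H3K4me3 within 100 kb. Among H3K9Ac peaks with H3K4me3 the same share was 39.8%, which lies inside that interval. The most was 4, at LONP2, which encodes a peroxisomal protease. Of 64 genes listed as markers of fibroblasts, of the matrix response or of other cell types, 10 were among these genes and no marker of another cell type was.

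At 4 of these 10 genes such a peak lay within 100 kb of the amplified region. Over all 177 genes placed this was so for 75 (42.4%), so the listed genes did not stand out. RUNX1, a transcription factor of blood and mesenchyme, had 3: chr4:12624746-12626530 (score 121.21, 0.599 kb from H3K4me3), chr4:12611106-12612225 (score 58.92, 2.73 kb) and chr4:12715483-12716768 (score 56.21, 2.55 kb). All were flanking. TPM1, which encodes a tropomyosin of actin filaments, had 2 flanking peaks, chr1:148344693-148346377 (score 116.22, 1.40 kb) and chr1:148347437-148349021 (score 95.07, 4.15 kb), which were 6.71 and 4.06 kb from the amplified region. FOSL2, a subunit of the AP-1 transcription factor, had a distal peak at chr1:510128374-510129627 (score 104.79, 16.2 kb from H3K4me3 and 31.1 kb from the amplified region). FN1, which encodes the matrix protein fibronectin, had a weak distal peak at chr7:178151847-178152989 (score 56.11, 29.9 kb from H3K4me3 and 24.1 kb from the amplified region). MEIS1, PTGS2, TBX15, JUNB, VIM and TWIST1 had none within 100 kb, the nearest being 196 kb (PTGS2) to 1595 kb (MEIS1) away. Whether any of these peaks acts on the gene named beside it was not tested.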

How the data were processed

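The authors made 1 native ChIP-seq library per mark, mapped reads to MonDom5 and called peaks against input. The submitters' processing notes name CASAVA 1.7, Bowtie 1.1.2 and MACS 1.0.1. Each deposited list gives, per peak, a position and a score, which the authors' peak caller computed as 10 times the negative log10 of the p-value. No read counts or signal were used, so the reads behind a peak and the error of its score are not known here. The H3K9Ac and H3K4me3 lists start at scores of 50.01 and 50, and the lists of MORs at 30, of which peaks of 50 or more were kept.

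Files were assigned to marks by the labels of the samples, and 0 columns belonged to other samples. Peaks were compared in Python 3.11.15 with numpy 2.4.6, pandas 2.3.3 and scipy 1.17.1, and plots were drawn with matplotlib 3.10.9. Starts were counted from 1, and 2 H3K9me3 starts below 0 were set to 0. Sharing at least 1 base counted as overlap, and gaps were taken between peak edges. The code was tested on simulated peaks and checked against bedtools 2.31.1. Named regions are the 10 highest scores, the 5 widest, the 5 highest scores over 5 kb and over 100 kb from H3K4me3, the 3 farthest, the 3 clusters with the most peaks (ties by summed width), the 5 overlaps with the highest H3K9me3 score, overlaps with H3K27me3, and 3 on either side of the selection limit. The set, its classes and the gene lists were chosen with earlier results of these data known. Gene positions were those of the study's amplified 3′ regions, a choice added after the peak lists were read. Genome sequence and annotation of MonDom5 were not used here, so sequence features and positions within genes were not analysed. Other thresholds, merging and distances were tried as alternatives.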

Additional observations from a re-analysis of the deposited data

Results flagged for a closer look

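Comparisons were limited to chr1 to chr8, but H3K9Ac peaks without H3K4me3 also occurred on sequence that they did not use, which is why both counts are given here. On X there were 101 of 498 H3K9Ac peaks (20.3%, 16.8 to 24.1%), against 8.67 to 10.5% on chr1 to chr8. Their median score was 89.8, their median width 1514 bases and their median gap to H3K4me3 14.5 kb. Of them, 73 were distal, none overlapped H3K9me3 of score 50 or more, and the highest score was 951.69. On unplaced sequence there were 78 of 848 (9.20%, 7.34 to 11.3%), with a median score of 81.7, of which 45 were distal and 2 overlapped H3K9me3. The cause of the higher share on X was not tested.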

How the results depend on the processing

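For 9 results, 58 alternative values were computed, of which 29 stayed within their 95% interval, or within 1.5 times for a number of peaks, and 29 moved further. Leaving out H3K9Ac peaks with a score below 100 left 1499 peaks without H3K4me3, with a median width of 1878, a median score of 140.4, 57.71% distal, 7.939% in clusters, 0.8005% overlapping H3K9me3 and 16.74% within 10 kb of it, and 0% overlapping H3K27me3. Letting only H3K4me3 peaks with a score of at least 100 exclude a peak gave 8087 peaks, with a median width of 1427, a median score of 82.48, 65.51% distal, 19.41% in clusters, 0.6059% overlapping H3K9me3 and 16.98% within 10 kb of it. The size of the set thus rests on both thresholds. The distal share was 68.65% with no H3K4me3 allowed within 1000 bases, 67.17% with H3K9Ac peaks within 1000 bases merged, 79.53% with distal set at over 2 kb and 24.56% at over 20 kb. The clustered share was 12.24% after merging, 10.46% with a gap of 5 kb and 24.09% with 20 kb. Overlap with H3K9me3 was 0.6921% with every deposited H3K9me3 peak and 0.1384% at a score of at least 100, and the share within 10 kb was 23.04% and 7.198%. For H3K27me3, overlap was 0% at a score of at least 100, and the share within 10 kb was 2.59% with every deposited peak and 0.1582% at that score. Apart from what each setting does by its construction, the cause of these shifts was not tested.

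No paired analysis was possible because each mark had 1 library. No replicate was left out, for the same reason. Planned results on sequence features and on genes from an annotation were not run, as no MonDom5 genome was used here. A peak without H3K4me3 is a peak without a call, and an H3K4me3 signal below the caller's threshold cannot be told apart from none.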
